A study of Drosophila melanogaster with 3 samples.

Results

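A small set of protein-coding genes each held 7 or more peaks of a GFP-tagged transcription factor in Drosophila melanogaster embryos. Of the 5208 peaks in the authors' optimal list, 455 had their summit inside such a gene, and 52 of 13944 protein-coding genes qualified (0.373%). The genes were chosen by that count, with REPTOR, the gene of a candidate tagged protein, left out. The count in the optimal list is therefore a description here, and no test was made of it. Chromatin immunoprecipitation with an anti-GFP antibody was followed by sequencing in 3 biological replicates of whole embryos, numbered 1, 2 and 4, which form 1 group. Each came from embryos of both sexes collected at 0 to 24 h from a transgenic line of strain CG18619-GFP, and chromatin was sonicated to 200 to 800 bp. The labels disagree on the protein that carries the tag. The strain, source and antibody fields point to CG18619, which is REPTOR-BP, while the description and a note name REPTOR with GFP at its C-terminus. What promoter drives the transgene was not given in the sources used here, and no untagged, treated or mutant embryos were among the samples. Whole embryos pool every cell type of this stage, so a peak in few cells and a weak peak in many cannot be told apart. Sequencing depth per replicate is unknown, because the lists hold no read counts.

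REPTOR and its partner REPTOR-BP belong to the basic leucine zipper (bZIP) family of transcription factors and are known in flies for the gene response that follows inhibition of the kinase complex TORC1 when nutrients are short. Long fly genes that encode developmental regulators usually carry large introns, and enhancers that drive expression in different tissues often lie inside them. A single gene can therefore hold several separate regulatory elements that bind the same factor.

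Peak summits in these genes lay on average in DNA rich in A and T, with 34.9% G and C over the 455 windows. Sequences are printed because the base composition and the short words described further on can be read in them. The windows cover 101 bp around the summit of the strongest peak in 10 of the genes, read from the plus strand of the RefSeq assembly of the dm6 build. These 10 were picked after their values were seen and do not stand for the 455 peaks. Capitals mark, on either strand, 5 hexamers (the word ATATTA, the word TACTAA, the word CGATAG, the word TTTAAA and the word TATTAA) and the longer motifs searched other than runs of A, which are left in lower case. Of those longer motifs the FOXO site TGTTTAC is present here.
ush (chr2L:481015-481115): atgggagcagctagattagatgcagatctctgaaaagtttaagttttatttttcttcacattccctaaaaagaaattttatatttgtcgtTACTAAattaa
Tlk (chrX:3742188-3742288): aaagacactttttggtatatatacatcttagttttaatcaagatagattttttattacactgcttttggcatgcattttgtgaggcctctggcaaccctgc
larp (chr3R:28326544-28326644): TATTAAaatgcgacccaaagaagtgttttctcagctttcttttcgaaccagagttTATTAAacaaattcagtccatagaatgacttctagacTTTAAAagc
simj (chr3L:10682935-10683035): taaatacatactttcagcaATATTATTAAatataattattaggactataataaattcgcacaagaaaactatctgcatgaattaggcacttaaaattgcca
RapGAP1 (chr2L:7530684-7530784): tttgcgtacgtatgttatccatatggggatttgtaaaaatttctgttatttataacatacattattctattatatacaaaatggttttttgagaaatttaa
dnc (chrX:3255680-3255780): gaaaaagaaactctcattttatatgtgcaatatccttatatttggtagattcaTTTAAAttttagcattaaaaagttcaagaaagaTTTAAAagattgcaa
CHES-1-like (chrX:7706928-7707028): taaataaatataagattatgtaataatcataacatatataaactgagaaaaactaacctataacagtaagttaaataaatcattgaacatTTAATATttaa
Mnt (chrX:3678002-3678102): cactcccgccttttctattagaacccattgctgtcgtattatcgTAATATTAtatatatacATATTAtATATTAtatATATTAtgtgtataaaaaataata
eIF5B (chr3L:3460703-3460803): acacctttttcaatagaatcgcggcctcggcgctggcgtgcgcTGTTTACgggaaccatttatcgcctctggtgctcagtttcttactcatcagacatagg
SNF4Agamma (chr3R:21184869-21184969): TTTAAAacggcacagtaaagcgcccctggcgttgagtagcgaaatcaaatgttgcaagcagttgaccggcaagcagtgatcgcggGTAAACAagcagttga

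The most densely filled gene was bowl, which encodes a zinc finger factor of the odd-skipped family, and its 7 peaks are shown from the strongest (signal 373) to the weakest (163) so that windows within 1 gene can be compared. Capitals mark the same words as above.
bowl (chr2L:3776830-3776930): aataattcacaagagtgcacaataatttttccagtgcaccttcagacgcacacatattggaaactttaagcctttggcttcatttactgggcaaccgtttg
bowl (chr2L:3779299-3779399): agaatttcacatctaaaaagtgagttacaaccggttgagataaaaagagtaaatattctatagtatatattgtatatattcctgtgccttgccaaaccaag
bowl (chr2L:3773453-3773553): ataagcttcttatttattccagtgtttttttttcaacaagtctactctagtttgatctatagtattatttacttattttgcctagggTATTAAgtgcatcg
bowl (chr2L:3778373-3778473): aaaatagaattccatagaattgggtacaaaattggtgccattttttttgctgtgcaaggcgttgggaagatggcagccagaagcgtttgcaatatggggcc
bowl (chr2L:3775930-3776030): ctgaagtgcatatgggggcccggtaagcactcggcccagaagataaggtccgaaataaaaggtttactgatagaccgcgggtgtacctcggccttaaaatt
bowl (chr2L:3779507-3779607): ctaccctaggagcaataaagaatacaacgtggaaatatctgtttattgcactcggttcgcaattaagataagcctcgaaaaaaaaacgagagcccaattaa
bowl (chr2L:3777030-3777130): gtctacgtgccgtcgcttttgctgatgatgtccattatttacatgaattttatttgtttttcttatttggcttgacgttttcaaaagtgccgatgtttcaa

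In the 7 bowl windows the share of G and C ran from 28.7% to 50.5%, and 1 of the windows held a marked hexamer. Among the 10 strongest-peak windows printed it ran from 15.8% in CHES-1-like to 51.5% in eIF5B, and it was 62.4% in that of Glut4EF, which is not printed. The windows of Tlk and RapGAP1 held none of the marked words. The window of Mnt held several overlapping copies of ATATTA, and those of eIF5B and SNF4Agamma held the FOXO word. Over all 455 summit windows the shares were lower than in these 10, at 42.2% with any of the 5 hexamers and 3.96% with the FOXO word.

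The genes were long. Their median length was 65507 bp, from 12422 bp for bowl to 394149 bp for kirre, against 2166 bp for all protein-coding genes. Of the 1619 genes at least as long as bowl, the 52 were 3.21%. Genes within 20% of each gene's length numbered 3 to 616, with a median of 140.5, and came to 1926 in all. Pooled, these 1926 genes were shorter than the 52, with a median length of 19898.5 bp. Of these 1926 genes, 1057 (54.9%) held no optimal summit and none held more than 6, which the selection fixes. Long genes without a summit were thus common beside those that held many. The chosen genes held 1.78 summits per 10 kb on average, and their like-length genes 0.249, a ratio of 7.16 that the choice of genes sets.

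**Figure D1:**
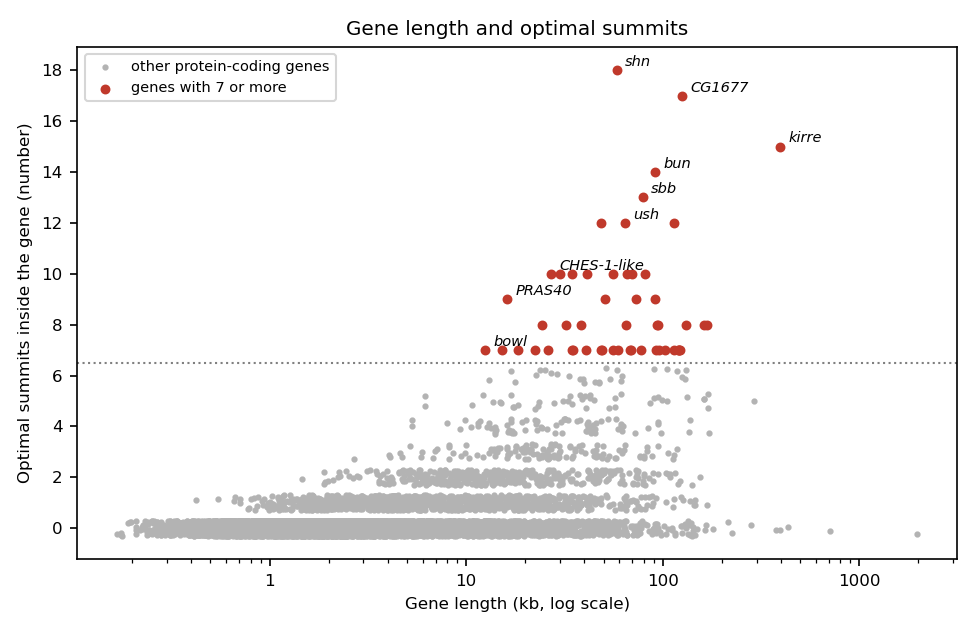
Number of optimal summits inside each protein-coding gene (vertical axis; grey points carry a small vertical offset so that equal counts can be seen) against gene length in kb (log scale). Red points are the 52 genes with 7 or more, from bowl at 12422 bp to kirre at 394149 bp, and the dotted line marks the minimum; of the other genes at least as long as bowl, most sit at 0 to 3 summits.

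The 3 replicates filled these genes in a similar way, although the optimal list was derived from them and the agreement is in part built in. Among the 5208 strongest regions of each replicate, 456, 411 and 441 lay inside the 52 genes in replicates 1, 2 and 4 (8.76%, 7.89% and 8.47%; mean 8.37% ± 0.44, SD, n = 3). The optimal list had 8.74% there (95% Wilson interval 8.00 to 9.53), in genes that cover 2.86% of the 6 chromosome arms. Replicate densities were 1.76, 1.58 and 1.67 summits per 10 kb, which is 6.92, 6.40 and 6.71 times those of genes of like length (mean 6.67 ± 0.261, SD, n = 3). Counted in each replicate alone, 54, 45 and 44 genes held 7 or more regions, and 44, 32 and 37 of the 52 genes were among them. In all 3 replicates 29 of the 52 kept that count, 8 did so in 2 replicates, 10 in 1 and 5 in none. No gene outside the 52 held 7 or more regions in all 3 replicates. Replicate 2 had the fewest regions of the 3 in 19 of the genes and the most in 8.

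**Figure D2:**
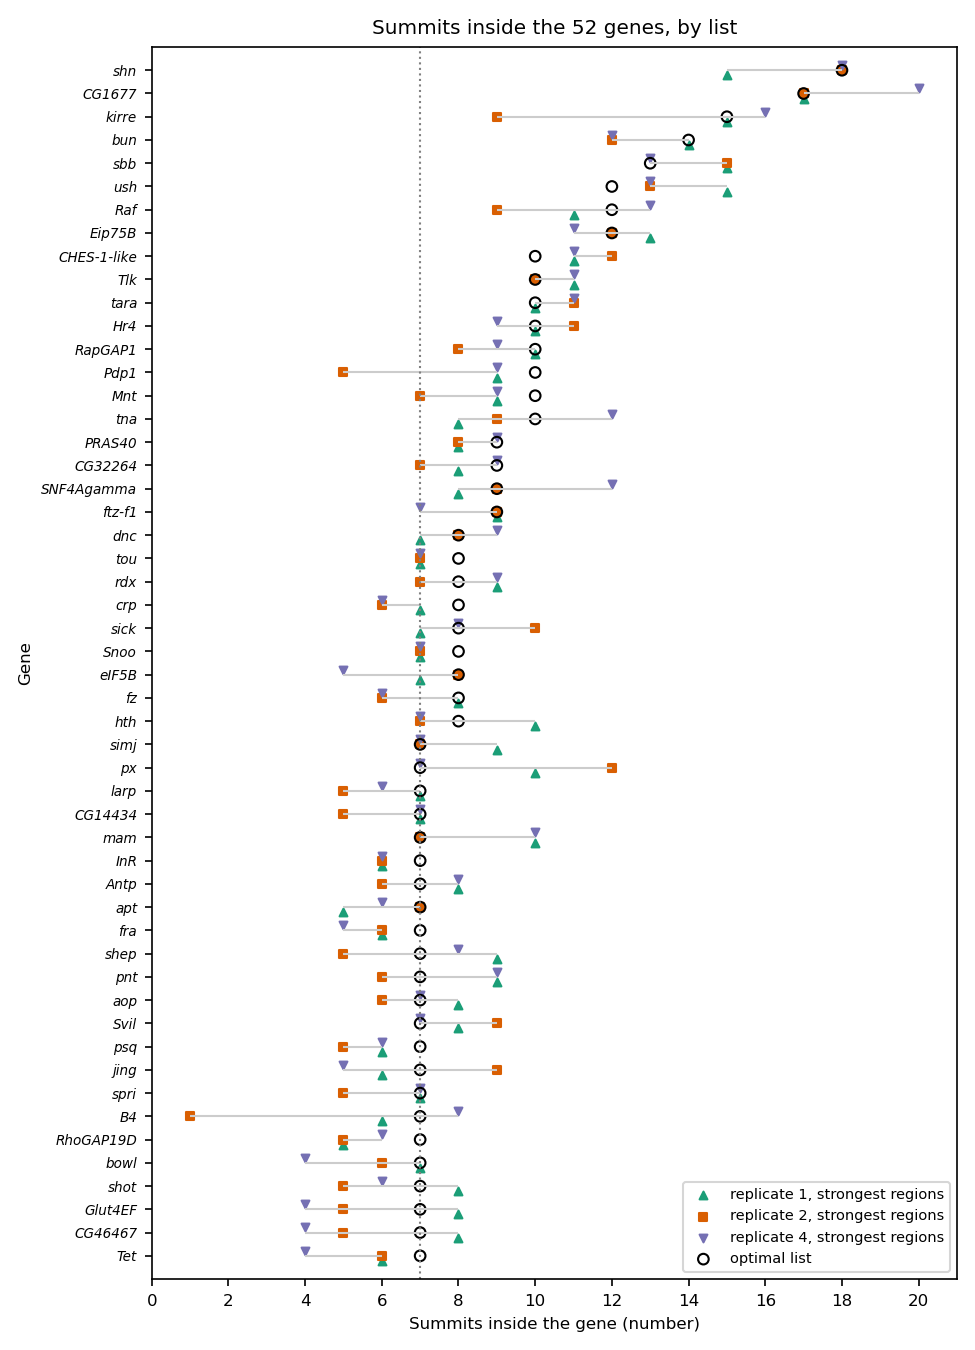
Summits inside each of the 52 genes in the optimal list (open circles) and among the strongest 5208 regions of replicates 1, 2 and 4 (coloured symbols, joined by a grey line from lowest to highest). The dotted line marks 7; shn and CG1677 lie at 15 or more in every list, while B4 falls to 1 in replicate 2.

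The genes are ordered here by roles given by hand with their values known, so the sizes of these groups are no result. Transcription factors and their direct partners came to 22, of which 17 are also on the list of transcription factors given further on with its background. The gene with the most summits was shn, which encodes the zinc finger protein Schnurri of the Dpp pathway (2R, 11159086 to 11217394, plus strand, 18 summits). The replicates had 15, 18 and 18 regions in it (17 ± 1.73, SD, n = 3), and 10 of its 18 peaks had a summit within 100 bp in all 3. No single peak dominated shn, as its strongest, in an intron (signal 765), held 12.7% of the summed signal, the lowest share of the 52 genes. Such a share tends to be lower in a gene with more peaks, and shn had the most. The weakest peak of shn, at 148, was the last peak of the optimal list. For bun, a leucine zipper protein of the TSC22 family that promotes growth (2L, 12455540 to 12546611, minus strand), the optimal list had 14 summits and the replicates 14, 12 and 12. Only 5 of these 14 were matched in all 3 replicates, and the strongest (signal 472) held 14% of the summed signal. The corepressor gene sbb (2R, 18278198 to 18357296, minus strand) had 13 summits and 15, 15 and 13 regions in the replicates, 9 of the 13 matched in all 3. Its strongest peak, an intronic one with a signal of 1724, ranked 41, 13 and 160 in replicates 1, 2 and 4.

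The gene with the highest summed signal was ush, which encodes a zinc finger partner of GATA factors (2L, 476220 to 540560, plus strand, 12 summits, summed signal 8281). Replicates 1, 2 and 4 had 15, 13 and 13 regions in it. A single intronic peak (2L, 480848 to 481339, signal 3751) held 45.3% of that sum and ranked 2, 3 and 3 in replicates 1, 2 and 4. It lay 4845 bp from the nearest start site of ush, and the summit of the second peak of the gene (signal 1091) was no more than 500 bp away from a start site of cbt, a neighbouring zinc finger factor gene. The other 10 peaks had signals from 168 to 761. These 2 peaks held most of the signal counted for ush, and which gene they act on cannot be read from the lists.

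Nuclear receptors that act in the ecdysone response were represented by 3 genes. Eip75B (3L, 17950953 to 18064696, minus strand) had 12 summits and 13, 12 and 11 regions in the replicates, with its strongest peak (signal 836) 65 bp from one of its own start sites. Hr4 (X, 1941940 to 2007956, plus strand) had 10 summits and 10, 11 and 9 regions, and ftz-f1 had 9 and 9, 9 and 7. In Eip75B and in Hr4, 8 peaks each were matched in all 3 replicates. The forkhead gene CHES-1-like (X, 7682338 to 7709385, minus strand) was short for this set, with 10 summits in 27048 bp and 11, 12 and 11 regions in the replicates. Of its 10 peaks, 9 were matched in all 3 replicates, and 6 had signals between 624 and 1064. The other 4 were weaker, down to 154.

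Pdp1 and Mnt held 10 summits each and had fewer regions in replicate 2 than in replicates 1 and 4. Pdp1, a bZIP factor of the circadian clock (3L, 7811458 to 7867369, minus strand), had 9, 5 and 9 regions in replicates 1, 2 and 4, and 2 peaks matched in all 3. Both matched peaks were its strongest, with signals of 705 and 479. Mnt, the Max partner that opposes Myc (X, 3671801 to 3701672, plus strand), had 9, 7 and 9 regions, with 5 peaks matched in all 3. Its strongest peak (signal 584) ranked 711, 595 and 705, and the others lay between 158 and 298. The remaining factors in this group had 7 or 8 summits each. They included crp and hth with 8, Snoo, a Smad corepressor, with 8, the Notch coactivator mam with 7 (10, 7 and 10 regions in the replicates), and the Hox gene Antp with 7 (8, 6 and 8). The ETS factors pnt and aop, an activator and a repressor downstream of the EGF receptor, had 7 each, with 9, 6 and 9 regions in pnt and 8, 6 and 7 in aop. Bowl had 7, 6 and 4 regions in the replicates at 5.64 optimal summits per 10 kb, the highest density of the 52 genes. Glut4EF overlaps the predicted gene CG46467 and shares all of its 7 peaks with it, and none of those peaks was matched in all 3 replicates.

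**Figure D3:**
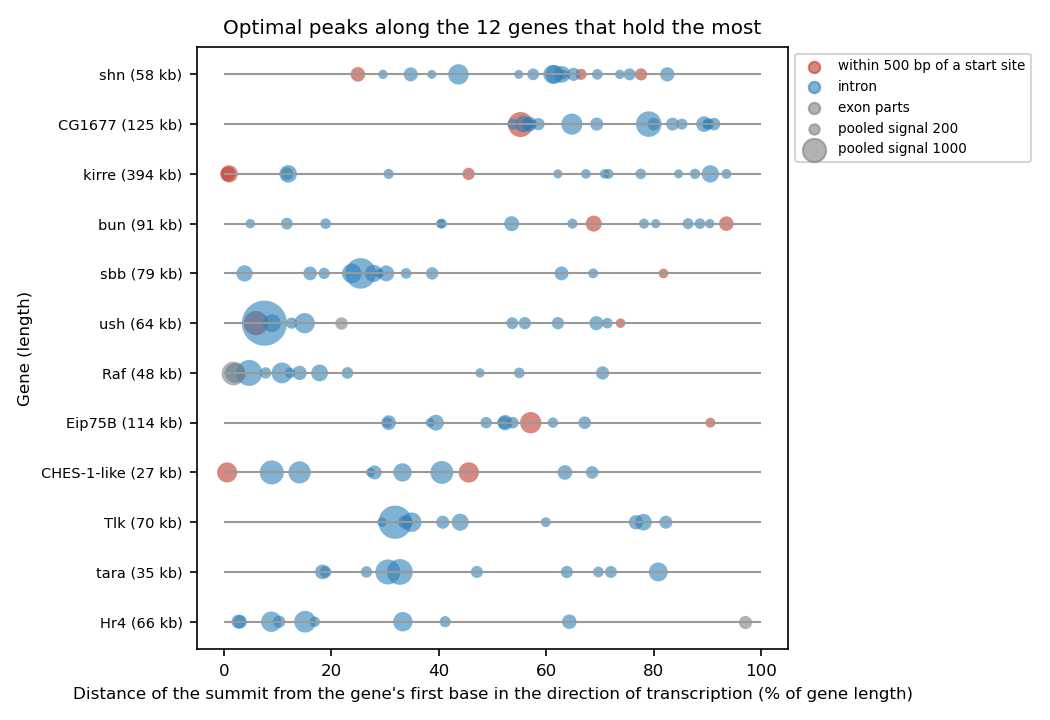
Position of each optimal peak along the 12 genes with the most summits, as a percentage of gene length from the gene's first base in the direction of transcription. The area of a point is proportional to its pooled signal and its colour gives the location; ush carries a single peak of 3751 near its start, whereas the 18 peaks of shn have signals of 148 to 765.

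The 6 genes placed under chromatin, tara, tna, tou, simj, Tet and Tlk, held 52 peaks, all intronic, beside an intronic share of 86.4% over all 455 peaks. At a promoter (closer than 500 bp to a start site) lay 0 of the 52, which allows a share of up to 5.77% by counting error alone, although peaks of 1 gene are not independent. Over pairs of peak and gene, the promoter share was 9.27% in the transcription factor group, 14.1% in signalling, 25% in the cell surface and cytoskeleton group, 27.3% in RNA binding and translation and 11.1% in genes with no role given, beside 11.9% over all 455 peaks. These groups were put together by hand with their values known, so their promoter shares are no result about genes of such roles. The strongest peak of the chromatin group was in an intron of Tlk, a kinase of chromatin assembly (X, 3742003 to 3742411, signal 2053). It ranked 30, 24 and 33 in replicates 1, 2 and 4. Tlk had 10 summits and 11, 10 and 11 regions in the replicates. The peaks of tara, a SERTA domain gene of the trithorax group (3R, 16225651 to 16260329, plus strand), numbered 10, with 10, 11 and 11 regions in the replicates and 8 peaks matched in all 3. Its strongest peaks had signals of 1222 and 1155. In simj, which encodes a subunit of the NuRD complex (3L, 10664739 to 10690734, plus strand), 7 summits were counted, with 9, 7 and 7 regions in the replicates. Its strongest peak (signal 1636) held 35.5% of the summed signal. Tet, a dioxygenase gene, had the lowest summed signal of the 52 genes (1226) and 1 peak matched in all 3 replicates.

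Signalling genes numbered 10 and included several that act in growth and nutrient pathways. PRAS40, which encodes an inhibitor of TORC1, was among the shortest (2R, 14481187 to 14497312, plus strand) and had 9 summits in 16126 bp, all in introns and all within 7404 bp of one another. The replicates had 8, 8 and 9 regions in it, and 4 of the 9 peaks were matched in all 3. Its signals ran from 149 to 686. SNF4Agamma, the gamma subunit of the energy sensor AMPK (3R, 21140739 to 21214269, plus strand), had 9 summits with signals from 160 to 458, and 8, 9 and 12 regions in the replicates. Of its 9 peaks, 6 were matched in all 3 replicates and 2 lay within 500 bp of its own start sites. InR, the insulin receptor gene (3R, 21570248 to 21619321, minus strand), had 7 summits and 6, 6 and 6 regions. Its strongest peak (signal 1048) lay in an intron 659 bp from a start site of InR, ranked 215, 63 and 379, and held 44.4% of the summed signal. The other 6 had signals of 149 to 371, and 2 of the 7 peaks were matched in all 3 replicates.

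Raf encodes the kinase that relays signals from receptor tyrosine kinases to the MAP kinase cascade (X, 2295466 to 2343870, plus strand). It had 12 summits, with 11, 9 and 13 regions in the replicates and a summed signal of 6115. Of its 12 peaks 7 were matched in all 3 replicates, and in replicate 2 the counterparts of 4 ranked beyond the first 5208. RapGAP1, which turns off the small GTPase Rap1, had 10 summits (10, 8 and 9 regions), and its strongest peak (signal 1557) lay 160 bp from one of its own start sites and held 41.9% of the summed signal. The cAMP phosphodiesterase gene dnc had 8 summits (7, 8 and 9 regions), of which 4 were at its own start sites (within 500 bp), among them the strongest at 1263 and 1095. The Wnt receptor gene fz had 8 summits (8, 6 and 6 regions), all in introns, with the closest neighbours 3074 bp apart. No other gene of the 52 spaced its closest summits so widely.

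Genes of the cell surface and the cytoskeleton were led by kirre, which encodes a receptor that founder cells use in myoblast fusion. It was the longest of the 52 genes (X, 2740384 to 3134532, plus strand) and the least dense, with 15 summits at 0.381 per 10 kb and 15, 9 and 16 regions in the replicates. The drop to 9 in replicate 2 came with only 5 peaks matched in all 3. None of its summits was near (500 bp) an own start site, and its 3 promoter peaks lay at start sites of the genes Syx4 and CG3588. The other genes in this group were fra, the netrin receptor (7 summits; 6, 6 and 5 regions), shot, a linker of actin and microtubules (7; 8, 5 and 6), Svil, a supervillin (7; 8, 9 and 7), and sick (8; 7, 10 and 8). In Svil, which has 16 annotated start sites, 3 of the 7 summits lay within 500 bp of one of them.

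The RNA-binding and translation genes in the set were eIF5B, larp and shep. The promoter peak of larp, a La-related RNA-binding protein (3R, 28326402 to 28326797, signal 1932), ranked 28, 33 and 37 in replicates 1, 2 and 4 and held 55.1% of the summed signal of its gene. Larp had 7 summits and 7, 5 and 6 regions. For eIF5B, a translation initiation factor that joins the ribosomal subunits, there were 8 summits with signals up to 432 and 7, 8 and 5 regions.

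No role is given here for 6 of the genes, namely CG1677, CG32264, CG14434, CG46467, px and B4. CG1677 (X, 7281089 to 7405797, minus strand) held 17 summits, with 17, 17 and 20 regions in the replicates (18 ± 1.73, SD, n = 3), and 13 of its peaks were matched in all 3 replicates, the most of any gene. All of its peaks lay more than 5000 bp from its own start sites, and 3 had summits inside the shorter genes Atg5, Dok and CBP that lie within the span of CG1677. Another, with a signal of 1158, was at the promoter of CBP. A count inside CG1677 is thus in part a count at genes nested in it. In px (2R, 22494297 to 22562065, minus strand) all 7 peaks were matched in all 3 replicates, and the replicates had 10, 12 and 7 regions. Its promoter peak (signal 2951), ranked 8, 5 and 12, held 64.9% of the summed signal, the highest share of the 52 genes. B4 (2L, 13500624 to 13549328, minus strand) had 7 summits but 6, 1 and 8 regions in replicates 1, 2 and 4, and no peak matched in all 3. In replicate 2, 5 of the 7 peaks of B4 had a region within 100 bp at ranks from 5633 to 10613, and 1 had none.

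Lists of genes by function put these counts beside their backgrounds, with no test, because lists and members were chosen with earlier results of these data known. On a list of transcription factors, 17 of 173 genes held 7 or more summits (9.83%, against 0.373% of all genes). Among its 103 genes of at least 12422 bp the share was 16.5%, against 3.21% of all genes that long. Growth, insulin and nutrient signalling had 5 of 60 (bun, InR, Mnt, Pdp1 and SNF4Agamma), which is 22.7% of its 22 long genes. Of these 5, bun, Mnt and Pdp1 are also counted on the list of transcription factors, which leaves InR and SNF4Agamma. The shares of all listed genes were 2.67% for chromatin (2 of 75), 2.86% for RNA binding and translation (2 of 70), 3.41% for receptors and ligands (3 of 88), 4.08% for kinases, phosphatases and their regulators (4 of 98), 2.94% for small GTPases and the cytoskeleton (3 of 102), 3.26% for adhesion, guidance and the synapse (3 of 92) and 5.26% for the clock (1 of 19). Among genes of at least 12422 bp the share was 10% for the clock, 8.70% for chromatin, 7.02% for kinases, 5.88% for receptors, 5.71% for RNA binding, 4.62% for small GTPases and 4.35% for adhesion. As filed, every list but metabolism and transport was thus above the 3.21% of all genes that long, though several of these shares rest on 1, 2 or 3 genes. Of the 3 genes on the adhesion list, sbb and ush encode transcription regulators, which leaves kirre alone. The place of that list above 3.21% thus depends on how genes were filed. The gene bun, counted with the kinases, encodes a leucine zipper protein. No gene of the 98 on the list of metabolism and transport qualified. Only 22 of those were long enough, too few to tell 0 from a share of 3.21%. Length differs between the lists, and its part in these shares was read only through the long genes.

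Most of the peaks lay in introns away from start sites. Of the 455 summits, 393 were intronic (86.4%) and 54 were promoter peaks, no farther than 500 bp from an annotated protein-coding start (11.9%; Wilson interval, 9.21 to 15.2). Over the whole optimal list the promoter share was 45.8%, and over the 1706 peaks inside genes of like length it was 24.0%. The promoter share was 11.6%, 14.8% and 12% in replicates 1, 2 and 4 (mean 12.8% ± 1.76, SD, n = 3), against 23.7%, 31.6% and 22.1% in genes of like length (25.8% ± 5.06, SD, n = 3). In each replicate it was lower in the 52 genes, and the values of the 2 gene sets did not overlap. The selection fixes a high number of peaks per gene, and the pooled like-length genes were shorter (median 19898.5 bp against 65507 bp). The part of either in this difference was not tested. The 52 genes had 4.04 annotated start sites on average, against 2.37 in their like-length genes. Of their 210 start sites 63 had an optimal summit within 500 bp (30%, interval 24.2 to 36.5), against 734 of 4114 (17.8%, interval 16.7 to 19) in genes of like length. The same optimal summits chose the genes, so a higher share here is in part built in and is no separate result.

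**Figure D4:**
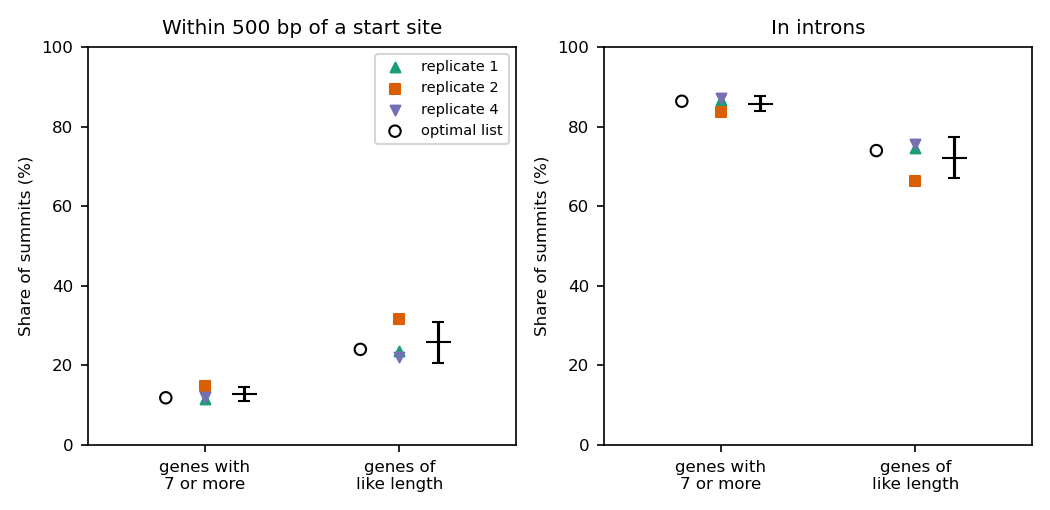
Share of summits within 500 bp of a start site (left) and in introns (right), for the 52 genes and for genes of like length, in the optimal list (open circle), in each replicate (coloured symbols) and as the replicate mean with its SD (n = 3). Promoter shares lie at 11.6% to 14.8% in the 52 genes and at 22.1% to 31.6% in genes of like length.

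Genes differed in whether summits inside them lay near their own start sites. In 27 of the 52 at least 1 summit inside the gene lay 500 bp or less from an own start site. In 13 at least 2 did, and 25 had none. Among those 25, InR, sbb, crp and psq had an optimal summit that close to an own start site but outside the gene. The median distance of the 455 summits to any start site was 3705 bp, against 1827.5 bp in genes of like length, and 39.1% against 26.9% lay beyond 5000 bp. Pooled, those like-length genes were shorter, and the part of length in these differences was not tested. At start sites of other genes lay 8 of the peaks, and 15 were also inside a protein-coding gene outside the 52. Among those were peaks of Antp, 6 of whose 7 peaks fall inside the overlapping CG46458.

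Along the gene, the peaks were spread more evenly than in the pooled genes of like length. Those genes were shorter (median 19898.5 bp against 65507 bp), and the part of length in this difference was not tested. With each gene cut into 4 equal lengths from its start, 29.9%, 25.8%, 27.9% and 16.5% of the 462 pairs of peak and gene fell in them, against 44.0%, 27.3%, 20.3% and 8.37% in genes of like length. The summits of a gene spanned a median of 67.9% of its length, from 19.5% to 94.4%. In 7 genes, tara, tna, Pdp1, PRAS40, tou, simj and jing, all summits fell in the first intron of the longest transcript, which takes up 60.7% to 92.2% of these genes. In 23 genes the first intron held none. Over all 52 genes 28.2% of the 450 intronic pairs lay in first introns, which make up 22.5% of the intron length, so first introns held little more than their length share.

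Some summits stood very close together. Of the 410 gaps between neighbouring summits of a gene the median was 2840.5 bp, against 2744 bp in genes of like length, and 44 (10.7%) were under 250 bp, against 12.5%. The smallest gap was 199 bp and the largest 73677 bp. With summits within 500 bp counted only once, 403 of the 455 peaks remained and 35 of the 52 genes still held 7 or more. On that count shn had 16, CG1677 15, kirre 15, bun and sbb 13 and ush 12, so the order at the top was kept. PRAS40 fell from 9 to 5, simj, larp, bowl and InR from 7 to 5, and B4 from 7 to 4. Counting of close summits therefore decides whether 17 of the genes pass 7.

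The peaks did not stand out in signal or in their match between replicates. Their median signal on the pooled scale was 245 (quartiles 184 and 377), against 253 for the other optimal peaks and 237 for peaks in genes of like length. Promoter peaks in the 52 genes had a median of 310 and intronic ones 241. Of the 250 strongest optimal peaks 20 were inside the 52 genes (8%, interval 5.24 to 12), close to their 8.74% of the list. All 3 replicates matched 243 of the 455 peaks, or 53.4%, and the share over the whole list was also 53.4%. The matched share was 84.2%, 70.8% and 83.5% in replicates 1, 2 and 4 (mean 79.5% ± 7.56, SD, n = 3), against 82.4%, 70.9% and 81.7% for other peaks (78.4% ± 6.44). These shares are near the background and show nothing particular to the 52 genes. Within a gene, the strongest peak held a median of 23.6% of the summed signal, and 24.7%, 26.4% and 25.5% in the replicates (25.5% ± 0.837, SD, n = 3). Of the strongest peaks of the 52 genes, with that shared by Glut4EF and CG46467 counted for both, 45 were matched in all 3 replicates. At promoters lay 11. They were picked for high signal and no equally strong peaks elsewhere were counted, so the 45 cannot be set against the 53.4%.

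Summits dipped in G and C as elsewhere in the list. The 101 bp windows at the 455 summits had 34.9% G and C and the flanks 500 bp to each side 42.0%, a difference of -7.11 percentage points, with 325 of the 455 peaks lower at the summit. The difference was -7.0, -5.92 and -7.76 points in replicates 1, 2 and 4 (mean -6.89 ± 0.923, SD, n = 3). Other optimal peaks had -8.94 points, with replicate values of -8.68, -5.75 and -9.59. Replicate 2 reversed the order of the 2 sets. Among peaks beyond 500 bp from a start site the values were -7.30 in the 52 genes and -7.94 elsewhere. In windows of 51 bp, G and C rose from 34.2% ± 0.493 at the summit to 44.1% ± 0.531 at 300 bp upstream on the plus strand and fell again to 39.8% ± 0.549 at 1000 bp (mean ± SE, 455 peaks). Other peaks had 42.7% ± 0.176 at that distance, and those beyond 500 bp from a start site lay between. Peaks of a gene are not independent and windows of close summits share bases, so these SEs may be too small.

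**Figure D5:**
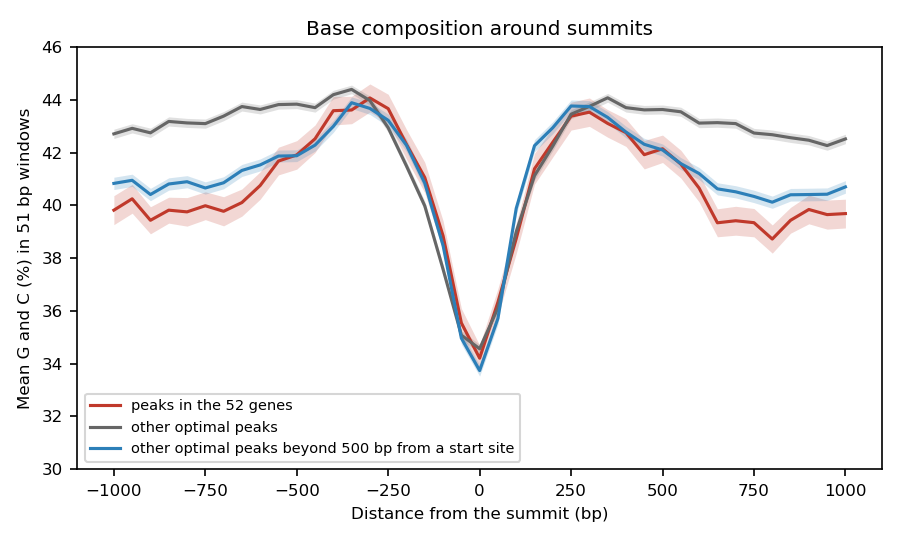
Mean share of G and C in windows of 51 bp against distance from the summit in bp, along the plus strand, for the 455 peaks in the 52 genes (red), all other optimal peaks (grey) and those other peaks beyond 500 bp from a start site (blue). Bands are ± SE over peaks, which are not all independent. All 3 lines dip at the summit, to 34.2% in the 52 genes, and the red line falls to 39.8% at -1000 bp.

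Words known for bZIP factors were read first. The cAMP response element TGACGTCA was found, on either strand, in 2 of the 455 summit windows and 2 of the 910 flank windows. Its part TGACG, which the full element contains, was in 7.47% of summit windows and 10.2% of flanks. The AP-1 word TGACTCA was in 6 summit windows (1.32%) and 1.10% of flanks, against 0.926% and 0.926% at other peaks and 0.703% and 1.06% in genes of like length. The C/EBP word TTGCGCAA was in 0 of 455 summit windows, which allows up to 0.659%, and in 2 of the 910 flanks. The FOXO site TGTTTAC was in 18 summit windows (3.96%) and 1.87% of flanks, against 4.33% and 2.49% at other peaks and 5.63% and 2.61% in genes of like length. The GAGA repeat GAGAGAG was in 1.98% of summit windows and 5.82% of flanks. The DRE word TATCGATA, found at many housekeeping promoters, occurred in 0 of 455 summit windows, which allows a share of up to 0.659%, and in 1.64% of the windows at other peaks and 0.176% of those in genes of like length. Motif 1 GGTCACAC was in 3 summit windows (0.659%, against 1.14% at other peaks). The TATA word TATAAAAG was in 5 summit windows and 5 of the 910 flanks, the E-box CACGTG in 3 and 8, and the Zelda word CAGGTAG in 2 and 7. A run of 8 A was in 8.13% of summit windows and 10.2% of flanks, against 7.26% and 5.94% at other peaks and 8.85% and 7.65% in genes of like length. A match is a description of the letters and not of a binding site, and no share is corrected for base composition.

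The hexamers marked in the sequences were chosen on peaks outside the 52 genes, as the 5 with the highest ratio of summit to flank windows, and then read in the 455 peaks. ATATTA was in 21.1% of the summit windows and 7.80% of the flanks, TACTAA in 6.59% and 2.31%, TATTAA in 19.8% and 9.23%, and TTTAAA in 13.4% and 7.58%. The words overlap each other, and 4 of the 5 were more frequent at summits than in flanks here too. CGATAG was the exception, in 1.10% of summit windows and 1.87% of flanks, against 5.37% and 2.18% at other peaks. At least 1 of the 5 was in 192 of the 455 summit windows (42.2%, interval 37.7 to 46.8) and in 22.1% of flanks, against 47.8% and 21.7% at other peaks.

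The minimum of 7 cut through a continuous range of counts. There were 23 genes with exactly 7 summits and 26 with 6. Replicates 1, 2 and 4 had 7.35, 6.04 and 6.39 regions per gene in the former and 6.12, 5.31 and 5.46 in the latter. Just outside were Trl, which encodes GAGA factor, with 6 summits and a summed signal of 5163, NFAT (3013), the overlapping CG12912 and Hr3 (2745 for the same peaks) and the corepressor gene Smr (2701). By arm, the 52 genes numbered 9 on 2L, 11 on 2R, 11 on 3L, 10 on 3R, 11 on X and 0 on chromosome 4. Chromosome 4 had 31 genes as long as bowl but only 9 optimal peaks in all, too few to read the 0. They held 12.3% of the optimal peaks on X and 5.64% of those on 3R. Some were neighbours, as Mnt and Tlk lay 18334 bp apart, kirre and dnc 41907 bp and shot and mam 49092 bp.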

How the data were processed

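The deposited lists give 1 region per line, and the dm6 optimal list and 3 replicate lists of 30000 regions were used. The deposited signal column was given by the authors' caller for each region, in units of each list's own, with no stated normalization. The deposited −log10 q values entered no result, and the deposited summit offset, a number of bases, gave each summit. Per the deposited inventories, the optimal list was derived from the replicate lists and a pooled list by irreproducible discovery rate. The names of the caller and aligner and the cut-off of that rate were not given in the sources used here. No read counts were used, so depth is unknown and intervals cover counting error only.

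Summits were placed inside genes of Ensembl release 115 (13945 protein-coding genes on 6 arms), and sequence came from the matching RefSeq assembly. Of each replicate the 5208 strongest regions by signal were used, as many as the optimal list holds, and summits within 100 bp were matched. Promoter means within 500 bp of any protein-coding start site, and like length within 20%. Hexamers had to occur in 50 or more summit windows. No test was made, because the optimal counts chose the genes and the samples form 1 group. Members, lists and the rules for what is named were chosen with earlier results of these data known. The rules named the 12 genes with the most summits, the leading genes by summed signal, by density and by share of the strongest peak, the 12 strongest peaks and the 5 strongest genes with 6 summits. Roles were given to genes, other examples picked, and close summits merged, after their values were seen. Of the 10 function lists 33 of the 52 genes were on at least 1. Genes overlapping or nested in another count the same peaks. Nothing says that replicates came from separate parent cultures, so SDs may be partly technical. Code was tested on simulated data with planted summits and motifs. Python 3.11.15, numpy 2.4.6, pandas 2.3.3 and matplotlib 3.10.9 were used.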

Additional observations from a re-analysis of the deposited data

How the results depend on the processing

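The count of 52 genes rested on the threshold, on the list and on the replicates. It was 29 with 8 or more summits, 11 with peaks matched in all 3 replicates and 9 in the stronger 2604 peaks. All 11 and all 9 were among the 52, which is fixed, because both sets of peaks are parts of the optimal list. The count was 78 with 6 or more and 62 with 1000 bp added to each side of a gene. It was 35 with summits within 500 bp counted once, an alternative chosen after seeing the data. With peaks matched in both other replicates, also chosen afterwards, it was 13 without replicate 1, 21 without replicate 2 and 14 without replicate 4. The replicate mean of 47.7 genes became 8 with 2604 regions per replicate and 204 with 10416, and ran from 44.5 to 49.5 with a replicate left out. The 52 genes held 0.951 matched peaks per 10 kb in place of 1.78, and the ratio to genes of like length was 6.30 with lengths within 50%. The promoter share of 11.9% was 5.27% within 250 bp, 20.9% within 1000 bp and 10.1% at start sites of the 52 genes only. The share matched in all replicates, 53.4%, was 38.2% within 50 bp, 60% within 200 bp, 29.5% with 2604 regions, 78.9% with 10416, and 59.1% to 73.8% with a replicate left out, highest without replicate 2. The G and C difference of -7.11 points was -5.92 with windows of 100 bp to each side, -8.83 with flanks at 300 bp and -5.20 with flanks at 1000 bp. The cause of these shifts was not tested beyond what the settings themselves change. In all, 26 values, with the counts of 78, 62 and 35 among them, stayed within the replicate SD of the reported one, or within 1.5 times for counts and 10% for the median signal. The other 23 moved beyond those limits. The G and C difference stayed negative in every setting. The ratio to genes of like length is set by the choice of genes, and the remaining values cannot be negative. Replicate means with a replicate left out are among the 26. They cannot move by as much as the SD of the 3 replicates, so they show no stability. No paired analysis was possible because the 3 replicates form 1 group. Depth limits the lists in a way that could not be measured, since no read counts were used.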
